A study of Mus musculus with 8 samples.

Results

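The vascular basement membrane genes described here are 10 genes chosen by name: Col4a1, Col4a2, Lama4, Lamb1, Lamc1, Nid1, Nid2, Hspg2, Col15a1 and Col18a1. All 10 were found, each under a gene ID of its own, among the 53816 gene IDs listed for every library. Levels are in TPM (transcripts per 1000000 transcripts), a unit corrected for transcript length, so that levels of different genes can be set side by side. Of the 10 genes, 9 had a mean of at least 1 TPM and were tested among 13055 such genes. Lama4, at a mean of 0.941 TPM, fell below that filter.

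RNA was sequenced from whole livers of 8 mice, all of which had undergone bile duct ligation, the surgical block of bile flow that produces cholestatic injury and fibrosis. The genotype given for the 4 Myc-labelled mice is Myc overexpression in LSECs, the liver sinusoidal endothelial cells, and that of the 4 controls is wild type. Livers without ligation were not analysed here. The labels do not state the driver of the overexpression, the strain, age or sex of the mice, the time after surgery or any pooling. P-values therefore measure the spread between these libraries. Myc itself had 339, 356, 25.6 and 249 TPM in Myc-labelled replicates 1 to 4 and 272, 207, 554 and 89.2 TPM in control replicates 1 to 4. The lowest value belonged to a Myc-labelled library and the highest to a control, so every direction below rests on labels that the Myc level does not follow. Hepatocyte markers summed to 76640 to 112500 TPM in the Myc-labelled libraries and 78770 to 133900 TPM in the controls, with all 12 markers above 0 in every library.

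Basement membranes are thin sheets of matrix under endothelium and epithelium and around smooth muscle. A network of laminin trimers and a network of type IV collagen are tied together by nidogens and by perlecan, a heparan sulfate proteoglycan, while collagens XV and XVIII sit at the border with the interstitial matrix. The healthy liver sinusoid has little organised basement membrane, and its deposition is part of what is called capillarisation in fibrotic liver. In whole tissue, fewer cells of a type and less RNA per cell cannot be told apart.

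In the Myc-labelled livers, 8 of the 9 tested genes had a positive log2 difference and Col18a1 a negative one, but none passed the test. With limma at an adjusted p of 0.05, 0 of 13055 genes were higher (0% called) and 0 were lower (0% called). The adjusted p of every tested basement membrane gene was 0.9998. At an unadjusted limma p under 0.05, 165 genes (1.26%) were higher and 78 (0.597%) lower, and Col15a1 was the basement membrane gene among them. These counts moved with the scaling and with single libraries: they were 166 higher and 172 lower with median-of-ratios scaling, 166 and 152 with quantile normalization, 89 and 187 without Myc-labelled replicate 1, and 569 and 73 without Myc-labelled replicate 3. The median log2 difference of the 9 tested genes was 0.15, against 0.037 over all tested genes, of which 58% were positive. Log2 differences are Myc-labelled minus control on the log2(TPM + 1) scale, with ± SE, and this scale understates changes of low genes. Without Myc-labelled replicate 1 the signs split 4 positive and 5 negative, the median was -0.0068, and the median of all tested genes was -0.037. With limma array weights, which give each library its own weight, 3 were positive and 6 negative, with a median of -0.047.

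**Figure D1:**
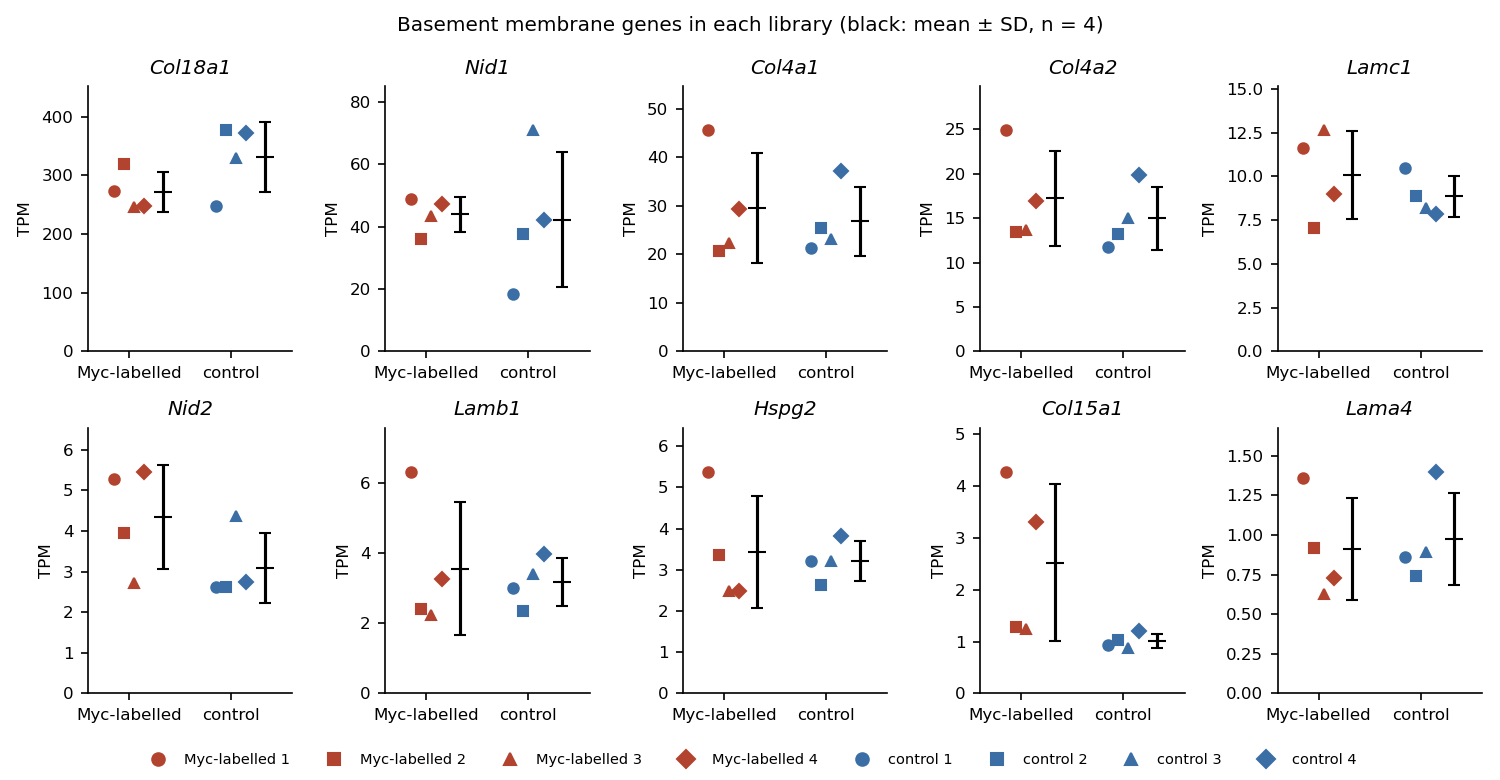
TPM of the 10 basement membrane genes in each library, Myc-labelled libraries to the left of controls, with points for single libraries and black bars for the mean ± SD of 4. Myc-labelled replicate 1, the red circle, is the highest of the 8 libraries for Col4a1, Col4a2, Lamb1, Hspg2 and Col15a1, and Col15a1 is the gene whose groups do not overlap.

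Type IV collagen forms the covalently linked network of the sheet. Its most widespread trimer joins chains encoded by Col4a1 (ENSMUSG00000031502.11, chromosome 8, 11198423 to 11312826, minus strand, mm10) and Col4a2 (ENSMUSG00000031503.13, chromosome 8, 11312805 to 11449287, plus strand). Col4a1 had 45.6, 20.8, 22.3 and 29.5 TPM in Myc-labelled replicates 1 to 4 and 21.4, 25.5, 23.3 and 37.2 TPM in control replicates 1 to 4. The groups overlapped, with Myc-labelled replicate 1 highest and Myc-labelled replicate 2 lowest of all. The mean was 29.5 ± 11.4 TPM against 26.8 ± 7.13 TPM (SD, n = 4 each), a log2 difference of 0.10 ± 0.26 with a 95% interval of -0.47 to 0.66. Col4a2 had 24.9, 13.4, 13.7 and 16.95 TPM in the Myc-labelled libraries and 11.7, 13.2, 15.0 and 19.9 TPM in the controls. Its order over libraries resembled that of Col4a1 at the top, where Myc-labelled replicate 1 was followed by control replicate 4. The log2 difference was 0.18 ± 0.22 with an interval of -0.32 to 0.67. Without Myc-labelled replicate 1 it was -0.13 for Col4a1 and -0.0068 for Col4a2.

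The records of Col4a1 and Col4a2 run in opposite directions and share 22 bases at their starts. The sequences below come from the RefSeq promoter table (GRCm38.p6, the assembly also called mm10). They are shown because the pair of these genes with the highest Pearson r over all 8 libraries shares this start. Any bearing of the start on that r was not tested. The stretch is chr8:11312801-11312830, read once on each strand, and capitals mark the GC box GGGCGG, or CCGCCC on the other strand.
Col4a2 strand: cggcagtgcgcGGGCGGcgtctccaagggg
Col4a1 strand: ccccttggagacgCCGCCCgcgcactgccg
The same GC box, at 11312812 to 11312817, thus lies within both promoter windows, which run from 250 bases before to 50 bases after each start. So does a CTC box, CCCTCCCC, at 11312792 to 11312799. Searched on both strands, 35.7% of 32851 promoter windows held a GC box and 10.8% a CTC box. No source used here gives the read strand, so reads from the shared 22 bases could not be assigned by strand. The other overlapping records of either gene were at most 0.49 TPM.

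Laminins are trimers of an alpha, a beta and a gamma chain that bind integrins and dystroglycan on the cell. Lama4 (ENSMUSG00000019846.11, chromosome 10, 38965515 to 39110188, plus strand) encodes the alpha chain typical of vessels and was the least abundant of the 10. It had 1.36, 0.919, 0.630 and 0.728 TPM in Myc-labelled replicates 1 to 4 and 0.860, 0.744, 0.894 and 1.395 TPM in control replicates 1 to 4, so that the groups overlapped. Mean read depth was 1.01 to 1.99 per base. In a fit with no filter, over 27386 genes, its log2 difference was -0.05 ± 0.18 (limma adjusted p = 1.0).

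Lamb1 (ENSMUSG00000002900.16, chromosome 12, 31265234 to 31329644, plus strand) encodes a beta chain shared by many laminins. It had 6.30, 2.41, 2.23 and 3.26 TPM in the Myc-labelled libraries and 3.01, 2.34, 3.41 and 3.97 TPM in the controls. The highest and the lowest of the 8 values were both Myc-labelled, and the log2 difference was 0.06 ± 0.27 (interval -0.53 to 0.65). It was -0.20 without Myc-labelled replicate 1 and -0.047 without control replicate 2. Lamc1 (ENSMUSG00000026478.14, chromosome 1, 153218922 to 153332786, minus strand) encodes the gamma chain found in most laminins. It had 11.6, 7.05, 12.6 and 9.01 TPM in the Myc-labelled libraries and 10.5, 8.89, 8.19 and 7.84 TPM in the controls. Unlike the type IV collagen genes, it was highest in Myc-labelled replicate 3. The log2 difference was 0.15 ± 0.20 (interval -0.28 to 0.58).

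Nidogens link the laminin network to type IV collagen. Nid1 (ENSMUSG00000005397.8, chromosome 13, 13437551 to 13512269, plus strand) had 48.8, 36.1, 43.5 and 47.4 TPM in Myc-labelled replicates 1 to 4 and 18.5, 37.8, 70.9 and 42.0 TPM in control replicates 1 to 4. Both the lowest and the highest value of the 8 were controls, and the SD was 5.675 TPM in the Myc-labelled group and 21.65 TPM in the controls. The log2 difference was 0.19 ± 0.33 (interval -0.54 to 0.92), and -0.14 without control replicate 1. Nid2 (ENSMUSG00000021806.4, chromosome 14, 19751265 to 19811787, plus strand) had 5.27, 3.95, 2.71 and 5.44 TPM in the Myc-labelled libraries and 2.62, 2.61, 4.37 and 2.74 TPM in the controls. Myc-labelled replicates 1 and 4 exceeded every control and replicate 2 all but control replicate 3, while replicate 3 lay among the controls. The log2 difference was 0.37 ± 0.23 (interval -0.13 to 0.88; limma unadjusted p = 0.134). Its last 437 bases overlap Rtraf on the opposite strand, which stood at 61.3 to 91.6 TPM.

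Perlecan, encoded by Hspg2 (ENSMUSG00000028763.18, chromosome 4, 137468769 to 137570630, plus strand), binds growth factors through its heparan sulfate chains. It had 5.37, 3.37, 2.49 and 2.49 TPM in the Myc-labelled libraries and 3.22, 2.63, 3.22 and 3.82 TPM in the controls. The Myc-labelled values lay at both ends of the range, and the log2 difference was 0.03 ± 0.23 (interval -0.47 to 0.53). It was -0.16 without Myc-labelled replicate 1, -0.039 without control replicate 2, -0.0059 with median-of-ratios scaling and -0.028 with quantile normalization.

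Collagens XV and XVIII are closely related, carry glycosaminoglycan chains and end in fragments with anti-angiogenic activity, endostatin in the case of collagen XVIII. Col15a1 (ENSMUSG00000028339.17, chromosome 4, 47208161 to 47313167, plus strand) is a marker of capillarised and continuous endothelium and of fibroblasts. It had 4.26, 1.28, 1.25 and 3.30 TPM in Myc-labelled replicates 1 to 4 and 0.925, 1.03, 0.882 and 1.196 TPM in control replicates 1 to 4. All 4 Myc-labelled values lay above all controls, a pattern shared by 0.935% of tested genes in this direction and 0.322% in the other. Replicates 2 and 3, however, were just above the highest control, and the mean of 2.52 ± 1.51 TPM against 1.01 ± 0.140 TPM rested on replicates 1 and 4. The log2 difference was 0.71 ± 0.29 (interval 0.07 to 1.35; limma unadjusted p = 0.03345), and from 0.48 without Myc-labelled replicate 1 to 0.89 without Myc-labelled replicate 3. With a pseudocount of 0.1 TPM it was 1.055 and with one of 5 TPM 0.30. Col15a1 was not tested with FPKM in place of TPM or with a filter of 5 TPM, because its mean fell below the filter there. Mean read depth over the gene was 0.711 to 2.95 per base.

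Col18a1 (ENSMUSG00000001435.15, chromosome 10, 77052178 to 77166548, minus strand), which hepatocytes also express, was by far the most abundant. It had 274, 319, 246 and 248 TPM in Myc-labelled replicates 1 to 4 and 248, 377, 330 and 372 TPM in control replicates 1 to 4. Of the controls, 3 exceeded all Myc-labelled values and replicate 1 lay among the lowest. The mean was 272 ± 34.0 TPM against 332 ± 59.6 TPM, a log2 difference of -0.28 ± 0.19 (interval -0.70 to 0.15; limma unadjusted p = 0.182). Its sign held with each library left out, from -0.41 to -0.21. Slc19a1 overlaps 8825 bases of it on the opposite strand and stood at 8.56 to 24.1 TPM.

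**Figure D2:**
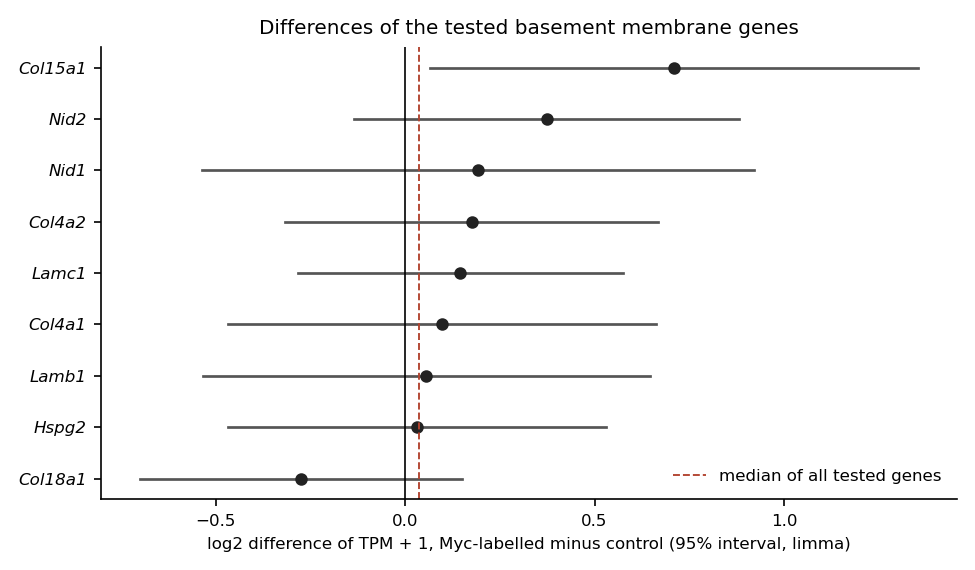
Log2 difference of TPM + 1, Myc-labelled minus control, with 95% limma intervals for the 9 tested genes, the solid line at no difference and the dashed line at the median of all tested genes (0.037). The interval of Col15a1 alone lies above 0 before adjustment over 13055 genes, and Col18a1 is the single gene with a negative estimate.

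The levels spanned a wide range, and most, but not all, neighbours in their order differed. Over all 8 libraries the means ran from Col18a1 at 302 ± 55.1 TPM through Nid1 (43.1 ± 14.7), Col4a1 (28.2 ± 8.90), Col4a2 (16.1 ± 4.37) and Lamc1 (9.46 ± 1.94) to Nid2 (3.71 ± 1.21), Lamb1 (3.37 ± 1.33), Hspg2 (3.33 ± 0.950), Col15a1 (1.76 ± 1.28) and Lama4 (0.941 ± 0.285). Neighbours in this order were compared within libraries by an exact two-sided sign-flip permutation test, adjusted over 9 pairs of neighbours. Of these, 6 differed, and 4 to 5 with any 1 library left out. The order was set by the same values that were tested, and fewer libraries allow fewer sign assignments. Col18a1 exceeded Nid1 by 7.31-fold in 8 of 8 libraries (exact permutation adjusted p = 0.0176), and Col4a1 exceeded Col4a2 by 1.73-fold in 8 of 8 libraries with the same adjusted p. Nid1 exceeded Col4a1 in 7 of 8 libraries (1.5-fold; exact permutation adjusted p = 0.0469). The other pairs that passed were Col4a2 over Lamc1, Lamc1 over Nid2 and Hspg2 over Col15a1. The 3 pairs that did not pass were Nid2 and Lamb1 (exact permutation adjusted p = 0.396), Lamb1 and Hspg2 (0.844), and Col15a1 and Lama4 (0.0603).

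Col18a1 supplied 64.1% to 79.9% of the summed TPM of the 10 genes. The share averaged 70.2 ± 5.96% in the Myc-labelled libraries and 76.1 ± 3.44% in the controls. The sum was 387 ± 37.0 TPM in the Myc-labelled libraries and 436 ± 78.0 TPM in the controls. Without Col18a1 it was 115.5 ± 27.9 TPM and 104 ± 25.9 TPM in the same order, so the sum of all 10 and the sum of the other 9 differed in opposite directions, each by less than the larger SD.

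Ratios of partner genes do not depend on how a library is scaled. Each of 7 ratios was compared between groups by exact two-sided permutation of the labels, with adjustment over the 7. The 70 assignments give a smallest possible p of 0.0286, so a single ratio could not pass alone after adjustment. The ratio of Col4a1 to Col4a2 was 1.83, 1.55, 1.63 and 1.74 in Myc-labelled replicates 1 to 4 and 1.82, 1.92, 1.55 and 1.87 in control replicates 1 to 4. It varied by 1.24-fold from its lowest to its highest library, while Col4a1 itself varied by 2.20-fold. The log2 ratio was lower by less than the spread (difference -0.09, exact permutation p = 0.314, adjusted p = 0.83).

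The ratio of Col15a1 to Col18a1 had groups that did not overlap, at 0.0155, 0.0040, 0.00507 and 0.0133 in the Myc-labelled libraries and 0.00373, 0.00273, 0.00267 and 0.00322 in the controls. Its log2 difference was 1.40, with the smallest p that the design allows (exact permutation p = 0.0286, adjusted p = 0.20). This adjusted p cannot decide whether the ratio differed, because a ratio at the smallest p could not pass alone. The ratio of Nid1 to Nid2 was 9.25, 9.16, 16.1 and 8.71 in the Myc-labelled libraries and 7.06, 14.5, 16.2 and 15.3 in the controls (exact permutation p = 0.457, adjusted p = 0.83). Within laminins, Lama4 amounted to 0.0945 ± 0.0364 of Lamc1 in the Myc-labelled libraries and 0.113 ± 0.0449 of it in the controls. Lamb1 amounted to 0.356 ± 0.150 of Lamc1 and 0.368 ± 0.114 of it in the same order. Lama4 also stood below Lama5, the alpha chain of mature vessels and of bile ducts, in every library, with ratios of 0.210 to 0.634. Lamb1 and Lamb2 were closer, with ratios of 1.33 ± 0.645 in the Myc-labelled libraries and 1.04 ± 0.149 in the controls. The adjusted exact permutation p of these 4 laminin ratios was 0.83.

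**Figure D3:**
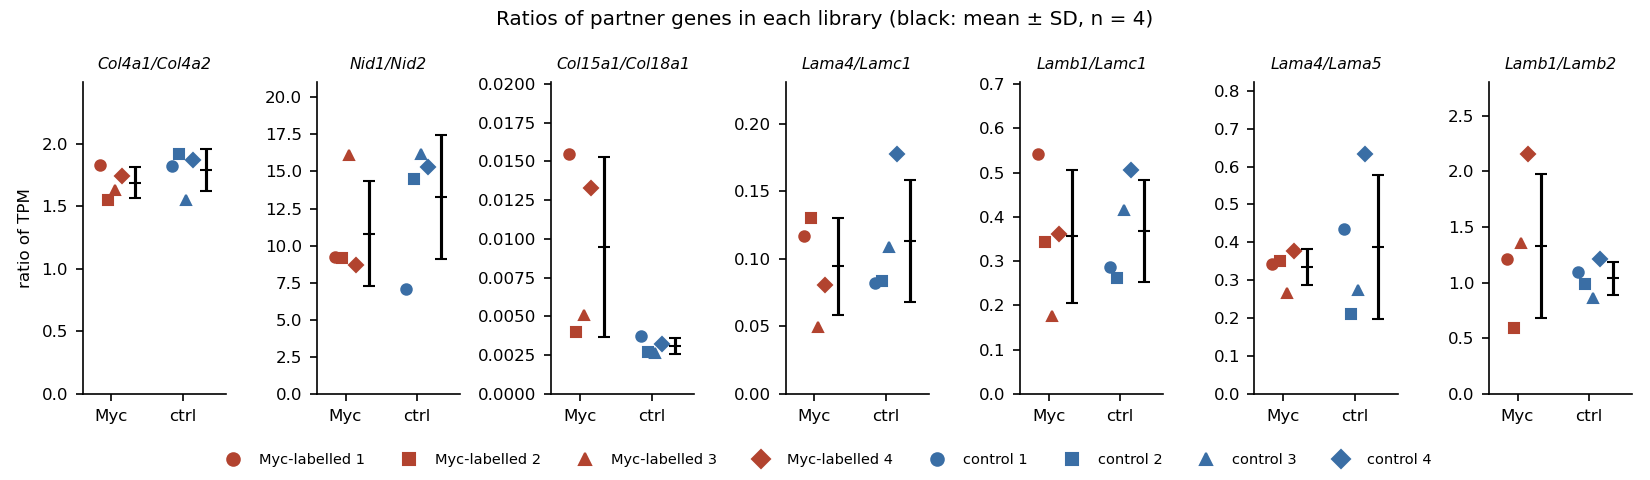
Ratio of TPM of 7 pairs of partner genes in each library, Myc-labelled to the left of control, with black bars for the mean ± SD of 4. Col4a1 over Col4a2 stays between 1.55 and 1.92 in all libraries, and Col15a1 over Col18a1 is the ratio whose groups do not overlap.

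Over the 8 libraries the genes fell into no single pattern. Pearson correlations of log2(TPM + 1) were positive in 38 of 45 pairs, with a median r of 0.321. No share over all pairs of tested genes stands beside these values, and the background differed by gene. By r to Col4a1, Nid1 at 0.316 ranked 7101 of 13054 tested genes, while by r to Lamc1, Col15a1 at 0.321 ranked 1888. In an exact permutation test adjusted over the 45, 2 pairs passed. Col4a1 and Col4a2 had r = 0.958 (exact permutation p = 0.000918, adjusted p = 0.0218) and Spearman rho = 0.81 (exact permutation p = 0.0218, adjusted p = 0.312). Lama4 and Hspg2 had r = 0.903 (exact permutation p = 0.000967, adjusted p = 0.0218) and rho = 0.952 (exact permutation p = 0.00114, adjusted p = 0.0513). By rho, 0 pairs passed after adjustment. By r, 12 pairs had an unadjusted exact permutation p under 0.05.

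Both correlations were then taken without the 2 libraries farthest from the median of the first gene, Myc-labelled replicate 1 and control replicate 4 in either case. For Col4a1 and Col4a2 r was 0.755 over the 6 libraries left (exact permutation p = 0.0833). With the 2 libraries chosen in this way for each pair by its own first gene, 0 of the 45 pairs passed after adjustment. That count cannot decide the matter, because 6 libraries allow too few pairings for a single pair to pass alone. For Lama4 and Hspg2 r was 0.948 (exact permutation p = 0.00972, adjusted p = 0.25 over the 45 pairs). Of the 45 pairs, 0 passed without Myc-labelled replicate 2, 3 or 4 or control replicate 3, or with median-of-ratios scaling. In these settings r stayed between 0.924 and 0.968 for Col4a1 and Col4a2 and between 0.832 and 0.905 for Lama4 and Hspg2. There was 1 pair without Myc-labelled replicate 1 or control replicate 2 or 4, and there were 3 without control replicate 1. Without Myc-labelled replicate 1 alone r was 0.906 and 0.911 for these pairs, and with the group means removed 0.968 and 0.921. Lamb1 was next, with r = 0.89 to Col4a2 and 0.872 to Col4a1 (exact permutation adjusted p = 0.0597 for both). With the group means removed these pairs passed, at r = 0.906 and 0.872 (exact permutation adjusted p = 0.0208 and 0.0402). Without Myc-labelled replicate 1 and control replicate 4 their r was 0.447 and 0.358. Between the type IV collagen genes and Hspg2 or Lama4, r was 0.693 to 0.766 over all libraries and below 0 in all 4 pairs without those 2. It was then -0.69 for Col4a1 and Hspg2, -0.432 for Col4a1 and Lama4, -0.431 for Col4a2 and Hspg2, and -0.224 for Col4a2 and Lama4.

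Col18a1 and Lamc1 had the lowest median r to the other 9 genes, 0.0739 and 0.0483. Above them came Nid1 (0.268), Lama4 (0.359), Nid2 (0.388), and Hspg2 and Col15a1 (0.425 each). The highest were Lamb1 (0.668), Col4a1 (0.693) and Col4a2 (0.725). These medians were not set against the background of each gene. By r to Lamc1 the tested basement membrane genes ranked from 1888 (Col15a1) to 12836 (Col18a1) of 13054. By r to Col18a1 they ranked from 4125 (Nid1) to 12877 (Lamc1). Between Col18a1 and Lamc1 r was -0.681 (exact permutation p = 0.0737, adjusted p = 0.222; rho = -0.69). Nid1 and Nid2 had r = 0.554 (exact permutation adjusted p = 0.393), and the partners Lama4 and Lamc1 r = -0.186 (exact permutation adjusted p = 0.892).

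**Figure D4:**
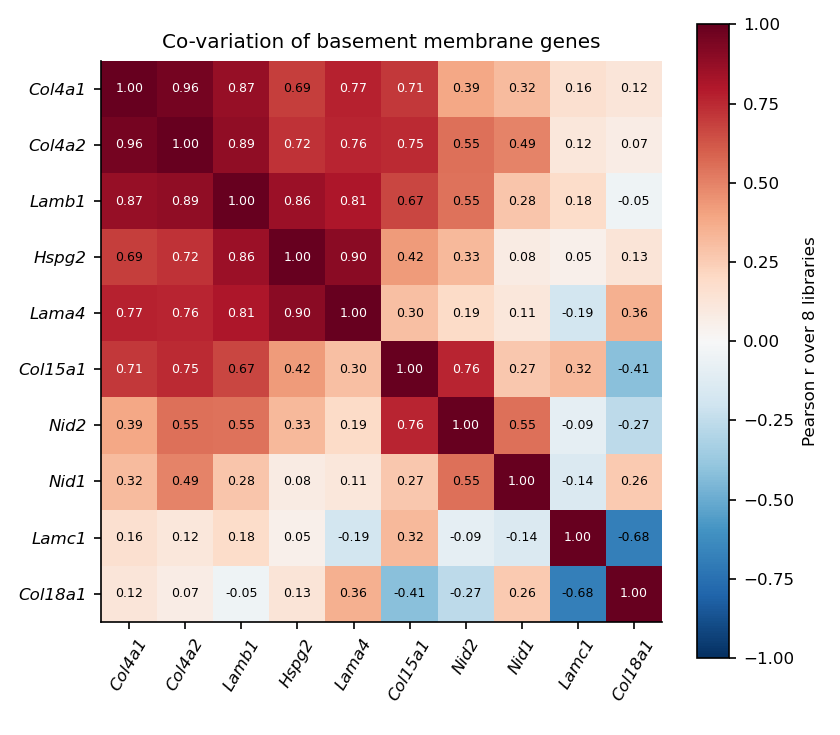
Pearson r of log2(TPM + 1) over 8 libraries for each pair of the 10 genes, in colour and digits, with genes ordered for display. Col4a1, Col4a2, Lamb1, Hspg2 and Lama4 have r from 0.69 to 0.96 among themselves over all 8 libraries, with 4 of these pairs below 0 without Myc-labelled replicate 1 and control replicate 4, while r of Lamc1 and Col18a1 to the others runs from -0.68 to 0.36.

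**Figure D5:**
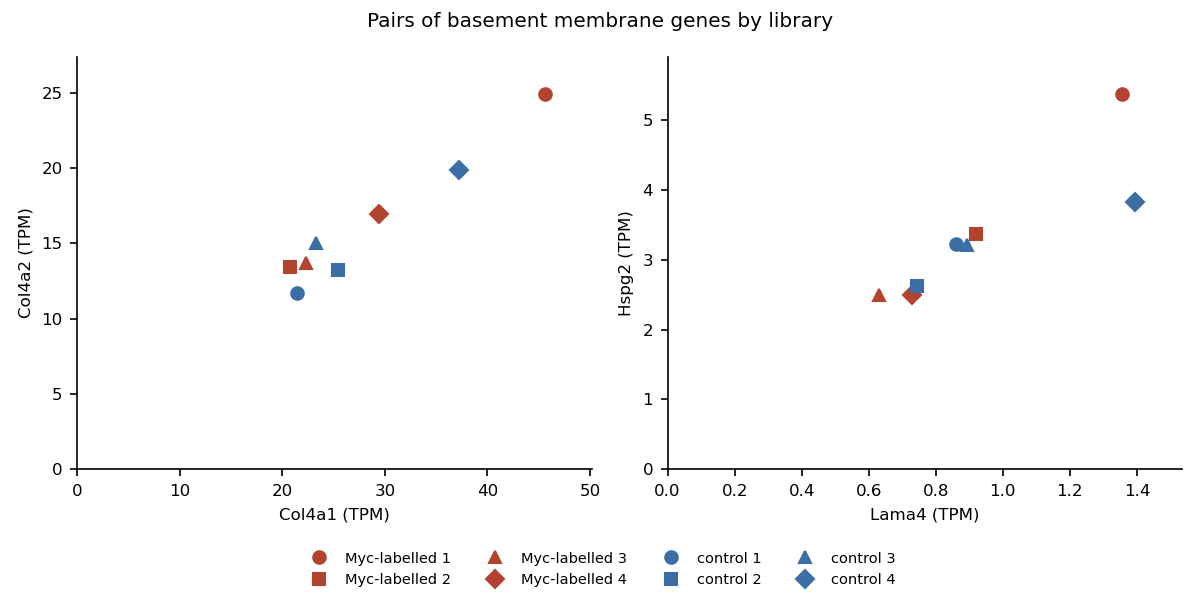
TPM of Col4a2 against Col4a1 and of Hspg2 against Lama4, with a point for each of the 8 libraries. Myc-labelled replicate 1 and control replicate 4 are the 2 libraries at the upper right of both plots, and the other 6 lie between 20.8 and 29.5 TPM of Col4a1.

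Because r was positive for many gene pairs in these libraries, each gene was also placed among all tested genes. Col4a2 ranked 4 of 13054 genes by r to Col4a1, and Col4a1 ranked 3 by r to Col4a2. Lamb1 ranked 110 by r to Col4a1, and Hspg2 ranked 78 by r to Lama4. The others were farther away, such as Nid1 at 7101 and Col18a1 at 9650 for Col4a1. The 3 genes of at least 5 TPM most like Col4a1 were Dkc1 (r = 0.983), AI837181 (0.969) and Rin3 (0.958). For Col15a1 they were Psip1 (r = 0.974), Hmga1b (0.971) and Arpc2 (0.966), and for Nid1 Sorbs2 (0.981), Ppm1f (0.978) and Slc22a23 (0.968). For Col18a1 they included Hdgfl2 (r = 0.968) and Gpld1 (0.962). The mean centred log2(TPM + 1) of the 9 tested genes was most closely followed by Aox1 (r = 0.985), Net1 (0.979) and Sugp1 (0.978). Among the first 10 were also Pdgfrb (0.966), a receptor of pericytes and stellate cells, and Itgb1 (0.962), the beta subunit shared by the main laminin and collagen integrins. With 8 libraries and 13055 genes such high values occur for many genes, and they are descriptions.

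Of the 10 genes, 7 had an entry in the RefSeq promoter table. Lama4, Lamc1 and Nid2 were not among them. The 100 bases before the first annotated exon or, for Col15a1, before the RefSeq start are shown for Lamb1, Hspg2, Nid1 and Col15a1. Lamb1 had the next highest r to Col4a1 and Col4a2, and Hspg2 was in the pair with Lama4 that passed. The groups of Col15a1 did not overlap, and its RefSeq start lies upstream of the first exon. Capitals mark GC boxes (GGGCGG), CTC boxes (CCCTCCCC) and CCAAT boxes (CCAAT) on either strand, none of which overlapped another in these stretches, and the E-box CACGTG, the site bound by Myc and Max, was searched as well.
Lamb1, chr12:31265134-31265233, plus strand: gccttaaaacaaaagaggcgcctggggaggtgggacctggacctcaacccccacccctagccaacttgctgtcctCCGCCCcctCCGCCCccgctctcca
Hspg2, chr4:137468669-137468768, plus strand: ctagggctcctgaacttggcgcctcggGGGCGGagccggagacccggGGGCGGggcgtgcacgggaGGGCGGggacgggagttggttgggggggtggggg
Nid1, chr13:13437451-13437550, plus strand: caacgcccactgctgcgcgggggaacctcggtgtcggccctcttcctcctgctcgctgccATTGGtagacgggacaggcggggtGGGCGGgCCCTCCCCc
Col15a1, chr4:47207912-47208011, plus strand: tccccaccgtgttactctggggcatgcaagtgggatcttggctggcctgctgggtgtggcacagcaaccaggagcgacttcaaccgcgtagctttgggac
The full Hspg2 window held 5 GC boxes and the Lamb1 window 2, while the Col15a1 window held 0 matches to any of the 4 motifs. The E-box letters were found in 0 of the 8 windows of these genes (Col18a1 has 2 starts) and in 7.15% of all windows. CCAAT was found in 37.4% of all windows. A match is a match of letters only.

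The rest of the basement membrane pathway gave 0 genes past the limma threshold in either direction. Of 4 other type IV collagen genes, Col4a5 alone reached 1 TPM, at 2.15 ± 1.86 TPM in the Myc-labelled libraries and 1.48 ± 0.352 TPM in the controls. Of 8 other laminin genes, 4 were tested and 2 had a positive difference, with Lamb2 at 3.11 ± 1.83 and 3.08 ± 0.679 TPM in the same order of groups. Of 17 other components, 11 were tested and 5 were positive, with a median log2 difference of -0.11. The calcium-binding matrix proteins Smoc2 (24.3 ± 11.45 against 36.9 ± 7.67 TPM, limma unadjusted p = 0.051) and Smoc1 (51.55 ± 12.0 against 62.4 ± 4.47 TPM) had the smallest p-values there. Fibulin-2, Fbln2, stood at 3.78 ± 2.97 against 1.83 ± 0.795 TPM.

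Of 20 receptors of basement membranes, 16 were tested and 10 were positive, with a median log2 difference of 0.05. The integrin subunit Itgav stood at 7.225 ± 2.34 TPM in the Myc-labelled libraries and 5.21 ± 0.870 TPM in the controls, and the collagen receptor Ddr1 at 9.41 ± 3.66 and 7.24 ± 3.97 TPM. Of 28 genes for collagen folding and crosslinking and heparan sulfate synthesis, 24 were tested and 16 were positive, with a median of 0.16. The lysyl oxidase-like gene Loxl4 stood at 2.09 ± 0.564 against 1.06 ± 0.592 TPM (limma unadjusted p = 0.0328) and the collagen prolyl hydroxylase P3h1 at 14.4 ± 1.63 against 11.8 ± 0.975 TPM. P3h1 was the gene of this group whose libraries did not overlap between groups, against 0.935% of all tested genes.

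The fibrillar collagens of scar tissue varied far more between libraries. The highest library exceeded the lowest by 18.2-fold for Col1a1, 9.34-fold for Col1a2 and 14.8-fold for Col3a1. For the 10 basement membrane genes that ratio was 1.53-fold for Col18a1 to 4.83-fold for Col15a1, and 2.20-fold for Col4a1.

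The 10 genes were set beside markers of the cell types that a whole liver holds. Of 90 relations between 10 genes and 9 marker lists, 0 passed after adjustment, by r or by rho. Stellate and fibroblast markers, 17 of 18 of them tested, had their highest centred log2 mean, 1.1, in Myc-labelled replicate 1. The remaining Myc-labelled libraries had -0.686 to 0.0712 and the controls -0.799 to 0.393. Their summed level was 273 to 741 TPM in the Myc-labelled libraries and 204 to 418 TPM in the controls. Of the 17 tested, 11 were positive and 6 negative, with a median log2 difference of 0.09. Acta2, the smooth muscle actin of myofibroblasts, stood at 10.3 ± 7.60 against 3.24 ± 2.22 TPM (log2 difference 1.24), while the elastic fibre protein gene Fbln5 had a log2 difference of -0.57, and neither passed. The basement membrane genes had 0.517 in that library on the same scale, -0.156 to 0.122 in the remaining Myc-labelled libraries and -0.307 to 0.0899 in the controls.

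Across the 8 libraries Lamb1 and the stellate and fibroblast mean had r = 0.92 (exact permutation p = 0.00136, adjusted p = 0.0614; rho = 0.833). Hspg2 and that mean had r = 0.91 (exact permutation p = 0.00228, adjusted p = 0.0685). Without the 2 libraries farthest from the median marker level these were 0.781 for Lamb1 and 0.787 for Hspg2. Hspg2 and Lama4 had r = 0.885 and 0.907 to pan-endothelial markers (exact permutation adjusted p = 0.0614 and 0.0996), and 0.688 and 0.512 without the 2 farthest libraries. Lama4 also had r = 0.861 to the stellate and fibroblast mean (exact permutation adjusted p = 0.103), and 0.858 without the 2 libraries farthest for that mean. Nid2 had r = 0.863 to cholangiocyte markers (exact permutation adjusted p = 0.112), and 0.837 without the 2 farthest libraries. Col15a1 had r = 0.897 to markers of tip and activated endothelium (exact permutation adjusted p = 0.0996), which became 0.243 without Myc-labelled replicates 1 and 4. To neutrophil markers it had r = 0.797 (rho = 0.81; exact permutation adjusted p = 0.122), and 0.709 without the 2 farthest libraries. Col15a1 had r = 0.221 to pan-endothelial markers (exact permutation adjusted p = 0.85), and -0.671 without the 2 farthest libraries. To the stellate and fibroblast mean its r was 0.607 (exact permutation adjusted p = 0.348), and -0.0176 without the 2 libraries farthest for that mean. Col18a1 had r = 0.275 to hepatocyte markers. Its highest r was 0.724, to macrophage markers (rho = 0.81, exact permutation adjusted p of r = 0.202), and 0.524 without the 2 farthest libraries. The part of any cell type in these values was not tested.

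Endothelial markers were present in all libraries. All 14 sinusoidal markers were tested and 13 were negative, with a summed level of 149 to 287 TPM in the Myc-labelled libraries and 215 to 294 TPM in the controls. Ehd3 stood at 12.4 ± 5.66 against 22.7 ± 2.94 TPM. Of 16 pan-endothelial markers, all tested, 9 were negative, with sums of 165 to 262 TPM and 165 to 272 TPM in the same order, and Robo4 stood at 4.11 ± 0.897 against 5.87 ± 0.955 TPM. Tip and activated markers were positive in 6 of 6 tested genes of 9, with sums of 12.4 to 31.1 TPM and 12.4 to 19.1 TPM. None passed the limma threshold.

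The other marker lists also had 0 genes past the threshold. Cholangiocyte markers were positive in 7 of 9 tested, with sums of 136 to 988 TPM in the Myc-labelled libraries and 116 to 343 TPM in the controls, and Spp1 reached 422 ± 366 against 172 ± 91.9 TPM. Mesothelial markers were positive in 2 of 5 and summed to 7.04 to 34.3 TPM in the Myc-labelled libraries, highest in replicate 1, and 13.7 to 20.8 TPM in the controls. Hepatocyte markers were negative in 9 of 12, with Cps1 at 1296 ± 451 against 1862 ± 298 TPM. Macrophage markers were negative in 9 of 10, with C1qc at 124 ± 31.0 against 166 ± 21.4 TPM. Their sums were 674 to 1276 TPM in the Myc-labelled libraries and 855 to 1753 TPM in the controls. Neutrophil markers were positive in 8 of 8 tested genes of 9, with Il1r2 at 4.79 ± 2.12 against 1.63 ± 1.19 TPM. Cxcr2, at 1.70 against 0.716 TPM, reached the filter of 1 TPM only through the Myc-labelled libraries. The neutrophil sums overlapped, at 27.9 to 163 TPM in the Myc-labelled libraries and 15.3 to 71.5 TPM in the controls.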

How the data were processed

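The submitters' processing notes name HISAT2, StringTie and the mm10 build, without versions; no source used here gives the read strand. The authors deposited TPM, scaled to 1000000 per library, beside FPKM and read coverage, a signal not scaled for depth, per the file headers. No counts were used. Repeated gene IDs (10 to 15 rows per library) were summed. The modal ratio of the deposited coverage to FPKM gives 5.29 to 6.74 Gb of aligned bases per library, if FPKM is scaled to all aligned bases.

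Differences were tested two-sided with limma 3.58.1 (R 4.3.3; trended, robust) on log2(TPM + 1), keeping 13055 genes whose mean reached 1 TPM; p-values were adjusted by Benjamini and Hochberg's method, with a threshold of 0.05. Ratios, order and correlations used exact permutation tests (Python 3.11.15, numpy 2.4.6, scipy 1.17.1). The scripts were tested on simulated data. The genes, ratios and lists were chosen with earlier results of these data known. Genes named from other lists are among the up to 4 per list with the smallest unadjusted p. By likeness, 3 genes of at least 5 TPM were taken per gene and 10 for the mean, passing over unnamed gene models. Some genes that these rules name are not reported here. Alternatives covered pseudocount, filter, scaling, FPKM, variance model, weights, replicate block and leaving out libraries.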

Additional observations from a re-analysis of the deposited data

Results flagged for a closer look

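In the 34 groups of 4 values examined (10 genes and 7 ratios in each of both groups of mice), the gap between an extreme library and its neighbour exceeded the 95% critical share of the range in Dixon's test in 2 cases. Chance gives about 1 in 20 groups. Nid2 stood at 4.37 TPM in control replicate 3, with a gap of 0.923 of the range to the other controls, which had 2.61 to 2.74 TPM. The ratio of Nid1 to Nid2 was 16.1 in Myc-labelled replicate 3, with a gap of 0.926 of the range to the other Myc-labelled libraries. The causes were not tested.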

How the results depend on the processing

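No gene passed the limma threshold in any setting except with array weights, where 1 gene was lower, Gm43305 (limma adjusted p = 0.0469), named after its values were seen. With array weights the log2 differences of Col4a1 (-0.16), Col4a2 (-0.042), Lamb1 (-0.15), Lamc1 (-0.047) and Nid1 (-0.16) changed sign, as Hspg2 did with median-of-ratios scaling (-0.0059) and quantile normalization (-0.028). Leaving out 1 library at a time gave log2 differences of -0.13 to 0.26 for Col4a1, -0.0068 to 0.31 for Col4a2, -0.20 to 0.19 for Lamb1, -0.14 to 0.49 for Nid1 and -0.16 to 0.13 for Hspg2. The log2 ratio differences then ran from -0.35 to 0.20 for Lamb1 to Lamc1, -0.35 to 0.18 for Lama4 to Lama5 and -0.062 to 0.56 for Lamb1 to Lamb2. The number of correlated pairs was 2 with all libraries, 0 to 3 with 1 left out and 0 with median-of-ratios scaling. It was 0 without the 2 farthest libraries of each pair and 4 with group means removed. Fewer libraries allow fewer pairings, and without 2 libraries a single pair could not pass alone. Same-numbered libraries were little alike: their deviations from the group mean correlated at 0.128, -0.0579, 0.0652 and 0.0704. Of the 4 Myc-labelled libraries, 1 correlated best with the control of its own number. Such correlations cannot decide whether same-numbered mice were paired. With the replicate block limma called 0 genes higher and 0 lower, and the median log2 difference of the basement membrane genes was 0.15. Low depth limits Lama4 and Col15a1 most.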
